A study of Mus musculus with 18 samples.

Results

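Complement is a proteolytic cascade of the innate immune system in which C1q, mannose-binding lectins or spontaneous turnover of C3 start a chain of cleavages that coats particles with C3 fragments and releases the small peptides C3a and C5a. The liver makes most circulating complement, and macrophages secrete a local supply of C1q, C3 and properdin. C1q, assembled from the A, B and C chains, also binds modified lipoproteins and dying cells, and the receptors for C3a and C5a are G protein-coupled receptors on myeloid cells. Expression was examined for 9 genes of this system: the C1q chains *C1qa*, *C1qb* and *C1qc*, the classical pathway protease *C2*, the central component *C3*, the alternative pathway protease *Cfb*, the alternative pathway stabilizer *Cfp* (properdin), and the receptors *C3ar1* and *C5ar1*. They were selected by gene symbol, each matched 1 row of the 31053 genes listed, and all 9 passed the filter on low counts that left 12290 genes for testing.

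Bone marrow-derived macrophages (BMDMs), which are primary cells grown out of marrow precursors, came from 12-week-old mice on a C57Bl/6J background, 3 mice per genotype. Knockout (KO, *Slc7a7*-/-) macrophages carried a deletion of the amino acid transporter gene *Slc7a7* made by LysM-Cre, a recombinase expressed from the lysozyme locus *Lyz2* in myeloid cells, and wild type (WT, *Slc7a7*+/+) mice were the controls. It is not stated whether the WT mice carried Cre. After 7 days of culture and reseeding, cells of each mouse received vehicle (control), acetylated LDL (AcLDL, 50 µg/mL) or oxidized LDL (OxLDL, 100 µg/mL) for 24 h, which gave 18 RNA-seq libraries in 6 groups of 3. Both modified lipoproteins are taken up through scavenger receptors and are used to turn cultured macrophages into lipid-laden foam cells. The question put to the data was how the complement genes respond to each LDL and whether loss of *Slc7a7* changes their level or response.

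Libraries held 1043492 to 1768816 estimated gene counts (median 1466145), so that 3 counts corresponded to 1.70 to 2.88 counts per 1000000 before scaling. All CPM values given are counts per 1000000 after TMM scaling of library sizes. *Slc7a7* itself was at 11.1 to 29.3 CPM in WT and 2.22 to 10.9 CPM in KO libraries, the KO mean being lower by 56.0% in control, 87.1% with AcLDL and 64.6% with OxLDL. All 10 macrophage markers examined exceeded 3 counts, whereas summed markers of stromal, dendritic, lymphoid and erythroid cells reached at most 26.9, 12.1, 1.40 and 2.19 CPM. Neutrophil markers were higher, with a sum of 55.0 to 345 CPM and 8 of 11 genes above 3 counts in some library. WT mouse 1 stood apart from the other WT mice: under control conditions it had 1123 CPM of *Adgre1* (F4/80), against 2170 and 2023, and 1741 CPM of *Csf1r* (the M-CSF receptor), against 2835 and 2986. Results that rest on its libraries are therefore given with and without them. The 3 libraries of a mouse share that animal, so fits with the mouse as a block are given wherever they change a call, and AcLDL and OxLDL comparisons of a genotype share the same control libraries.

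All 9 genes lie on the minus strand, and 5 of them sit in clusters. *C1qb* (chromosome 4, 136880129 to 136886187, GRCm38), *C1qc* (136889804 to 136893065) and *C1qa* (136895917 to 136898803) follow each other with 3616 and 2851 bases between them. *Cfb* (chromosome 17, 34856374 to 34862518) and *C2* (34862604 to 34898265) lie 85 bases apart in the MHC region, and *C3* lies farther along the same chromosome (57203970 to 57228136). *C3ar1*, *C5ar1* and *Cfp* are on chromosomes 6, 7 and X. Because the C1q chains varied together and *C3* differed most between media among the 7 members well above the counting floor, the 250 bases upstream of their RefSeq starts (GRCm38.p6) are shown, 5′ to 3′, with capitals marking the motif matches described next; 6 of the 9 genes had a promoter entry, and *C1qa*, *C2* and *Cfb* are named only. The RefSeq starts of *C1qc*, *C3ar1* and *C5ar1* lie inside the genes as annotated by GENCODE.
C1qb, chr4:136886201-136886450, minus strand: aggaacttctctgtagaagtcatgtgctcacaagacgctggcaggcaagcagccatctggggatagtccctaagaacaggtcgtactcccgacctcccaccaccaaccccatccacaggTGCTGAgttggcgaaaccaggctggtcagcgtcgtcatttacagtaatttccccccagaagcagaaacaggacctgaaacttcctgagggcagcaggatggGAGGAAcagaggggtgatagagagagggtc
C1qc, chr4:136892915-136893164, minus strand: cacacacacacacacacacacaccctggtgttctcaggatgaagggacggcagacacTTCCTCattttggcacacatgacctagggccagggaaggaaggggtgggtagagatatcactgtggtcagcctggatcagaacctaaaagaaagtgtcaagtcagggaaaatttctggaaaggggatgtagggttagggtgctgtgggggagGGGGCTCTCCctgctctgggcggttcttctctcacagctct
C3, chr17:57228137-57228386, minus strand: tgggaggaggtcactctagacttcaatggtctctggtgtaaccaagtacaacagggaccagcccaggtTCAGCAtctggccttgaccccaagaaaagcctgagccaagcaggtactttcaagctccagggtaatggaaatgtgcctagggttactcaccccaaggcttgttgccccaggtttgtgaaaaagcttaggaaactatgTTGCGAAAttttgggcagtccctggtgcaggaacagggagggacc

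Positions are counted from -1 at the base before the start, and both strands of all 32851 promoter entries were searched. The Maf core TGCTGA, present in 16.1% of promoters, was found in *C1qb* at -131 to -126 and on the other strand of *C3* at -182 to -177. The PU.1 core GAGGAA, present in 23.3% of promoters, was found in *C1qb* at -30 to -25 and on the other strand of *C1qc* at -193 to -188. *C1qc* also held a match to the NF-kB consensus, found in 7.25% of promoters, at -41 to -32. *C3* held the C/EBP motif TTNCGNAA, found in 2.04% of promoters, at -45 to -38. *C3ar1* matched the Maf core, the AP-1 motif TGANTCA, which 6.75% of promoters hold, and the TATA box sequence TATAAA, which 12.4% hold. *C5ar1* matched the Maf core at -17 to -12, *Cfp* matched none, and no member matched the GAS motif TTCNNNGAA (7.02% of promoters) or, of the E-boxes, the one spelled CACGTG (6.02%). The NF-kB match of *C1qc* and the Maf match of *C5ar1* lie within those genes as annotated by GENCODE. All of these matches describe letters in the window and are not evidence of binding.

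Per kilobase of exon, *C1qb* had the highest mean level over the 18 libraries (268 CPM per kb), followed by *C3ar1* (201), *C1qc* (150), *C5ar1* (82.2), *C1qa* (80.8), *Cfp* (77.5) and *C3* (23.9). *Cfb* (0.763 CPM per kb) and *C2* (0.200) were close to the counting floor. The order depends on the exon length used: before division by it, the means were 863 CPM for *C3ar1*, 291 for *C1qb* and 290 for *C1qc*. Neighbours in this order were not all separable: the 6 group means ranged from 72.8 to 92.8 CPM per kb for *C5ar1*, from 54.8 to 107 for *C1qa* and from 60.6 to 90.0 for *Cfp*. For *C3ar1* (181 to 215) and *C1qc* (124 to 184) the ranges of the group means overlapped as well, and those of *C1qb* (215 to 341) and *C3ar1* met.

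**Figure D1:**
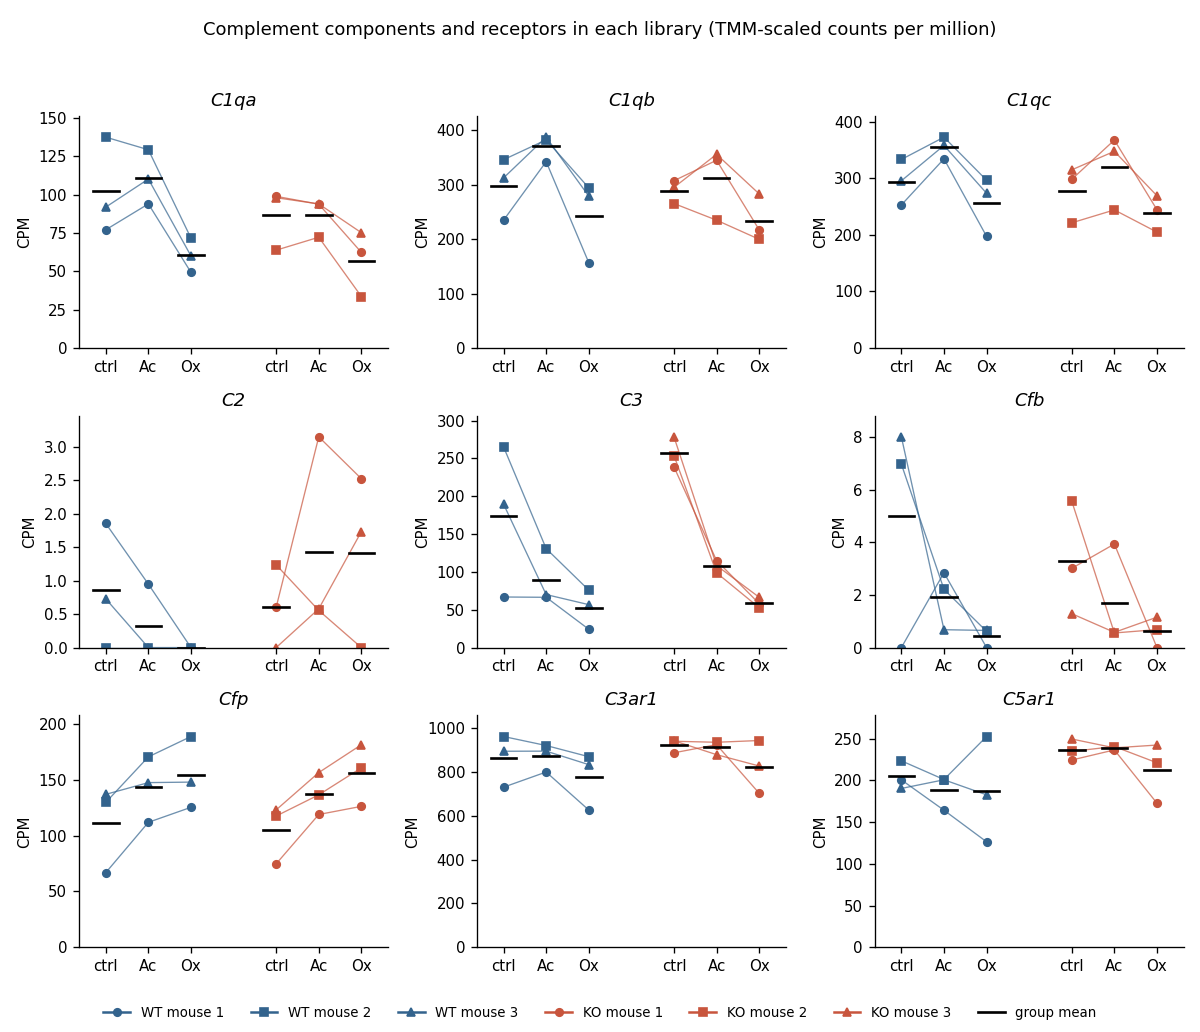
TMM-scaled CPM of each of the 9 genes (y axis, linear, from 0) in each of the 18 libraries, by genotype and medium (ctrl, control; Ac, AcLDL; Ox, OxLDL). Points joined by a line are 1 mouse and bars are group means (n = 3). *C3* falls from control to OxLDL in each mouse, the C1q chains are lowest with OxLDL in each mouse, and *Cfb* and *C2* stay at or below 8.02 CPM.

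*C3*, the component on which all activation routes converge, had the largest difference with OxLDL among the 7 members that were well above the counting floor. It fell with OxLDL in both genotypes, to 0.306 of control in WT (95% interval 0.187 to 0.500) and 0.231 in KO (0.143 to 0.373). In WT macrophages, *C3* was at 66.8, 265 and 189.5 CPM in control, 66.4, 131 and 70.0 CPM with AcLDL, and 24.2, 75.9 and 56.7 CPM with OxLDL (mice 1, 2 and 3). In KO macrophages it was at 239, 254 and 278 CPM in control, 115, 98.8 and 108 CPM with AcLDL, and 58.1, 52.7 and 66.5 CPM with OxLDL. The KO groups did not overlap in any pair of media, which 9.37% (AcLDL below control), 11.6% (OxLDL below control) and 6.93% (OxLDL below AcLDL) of all genes shared, whereas in WT the control library of mouse 1 lay below the OxLDL library of mouse 2. Within mice, the ratio of OxLDL to control was 0.362, 0.286 and 0.299 in WT and 0.243, 0.208 and 0.239 in KO. In bulk RNA, fewer cells expressing a gene and less of its RNA per cell cannot be told apart.

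In WT the OxLDL difference in *C3* was -1.71 on the log2 scale (SE 0.34, edgeR quasi-likelihood adjusted p = 0.00694), and in KO it was -2.11 (SE 0.33, edgeR adjusted p = 0.000404). *C3* was the single member called in these comparisons, in which 1.34% (WT) and 2.32% (KO) of all genes tested were called. In the fit without the block, the WT call was lost without the control library of mouse 2 (-1.27, edgeR adjusted p = 0.105). It was also lost when the compared libraries were fitted alone (edgeR adjusted p = 0.159). Without all 3 libraries of WT mouse 1 the WT difference was -1.77 (edgeR adjusted p = 1.07e-05). With the mouse as a block the difference was -1.71 in WT (edgeR adjusted p = 3.62e-10) and -2.12 in KO (edgeR adjusted p = 2.08e-13).

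With AcLDL, *C3* differed from control by -0.97 in WT (SE 0.33, edgeR adjusted p = 0.356) and by -1.26 in KO (SE 0.31, edgeR adjusted p = 0.0769), so that neither passed the threshold of 0.05. No member was called in either AcLDL comparison by edgeR or DESeq2, and 0.472% and 0.521% of all genes were called. At an unadjusted p under 0.05 there was 1 member in each, beside 901 (WT) and 926 (KO) of the 12290 genes tested. With the mouse as a block the *C3* difference passed in WT (-0.95, edgeR adjusted p = 4.46e-05) and in KO (-1.26, edgeR adjusted p = 9.52e-09), where 2.16% and 2.5% of all genes did. The ratios of AcLDL to control were 0.994, 0.493 and 0.370 in the WT mice and 0.482, 0.389 and 0.389 in the KO mice. WT mouse 1 thus had nearly the same *C3* level in both media, and without its libraries the WT difference was -1.18 (edgeR adjusted p = 0.00253). Without the control library of WT mouse 2 it was -0.54 (edgeR adjusted p = 0.814). Between the LDLs, which were given at different doses, *C3* was lower with OxLDL by 0.73 in WT (edgeR adjusted p = 0.965) and 0.85 in KO (edgeR adjusted p = 0.848) on the log2 scale. These differences passed with the mouse block (WT edgeR adjusted p = 0.0183, KO 0.00127), and in WT not once mouse 1 was also left out (0.0694).

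Of the 10 macrophage markers examined, *Cd14*, *Adgre1*, *Csf1r* and *Itgam* were lower with OxLDL than with control in each mouse, as *C3* was. Lower values in all 3 mice were seen for 15.9% (WT) and 20.5% (KO) of all genes. In the fit without the block none of these markers passed, and the blocked fit is not given for *Cd14*, *Adgre1* and *Csf1r*. In the OxLDL comparisons *Cd14*, the lipopolysaccharide co-receptor, differed by -1.12 in WT (edgeR adjusted p = 0.122) and -1.08 in KO (edgeR adjusted p = 0.0902). *Adgre1* differed by -0.53 and -0.61, *Csf1r* by -0.41 and -0.51, and none of these passed. The surface gene *Itgam* differed by -0.14 and -0.12 and the lysosomal glycoprotein gene *Cd68* by 0.10 and -0.03, again without passing. *Mertk*, *Fcgr1*, *Mrc1*, *Aif1* and *Lyz2* are not given by comparison. WT mouse 1 was low in *C3*, *Adgre1*, *Csf1r* and *Cd14* in all media. Summed over the whole list of 10 markers, which includes *Lyz2*, levels were 24880 to 35568 CPM in WT control, 26086 to 35997 with AcLDL and 21384 to 30355 with OxLDL. In KO they were 18080 to 21391, 15310 to 17810 and 12771 to 14700 CPM. *Lyz2*, the locus of the Cre, was alone at 7526 to 30462 CPM, and the next highest marker, *Csf1r*, reached 3000 CPM, so the sums mostly follow *Lyz2*. In control, *Csf1r* was at 2477 to 3000 CPM in KO and 1741 to 2986 CPM in WT. *Adgre1* was at 1642 to 2099 CPM in KO control and 1123 to 2170 CPM in WT control. The part of these genes in the *C3* result was not tested.

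**Figure D2:**
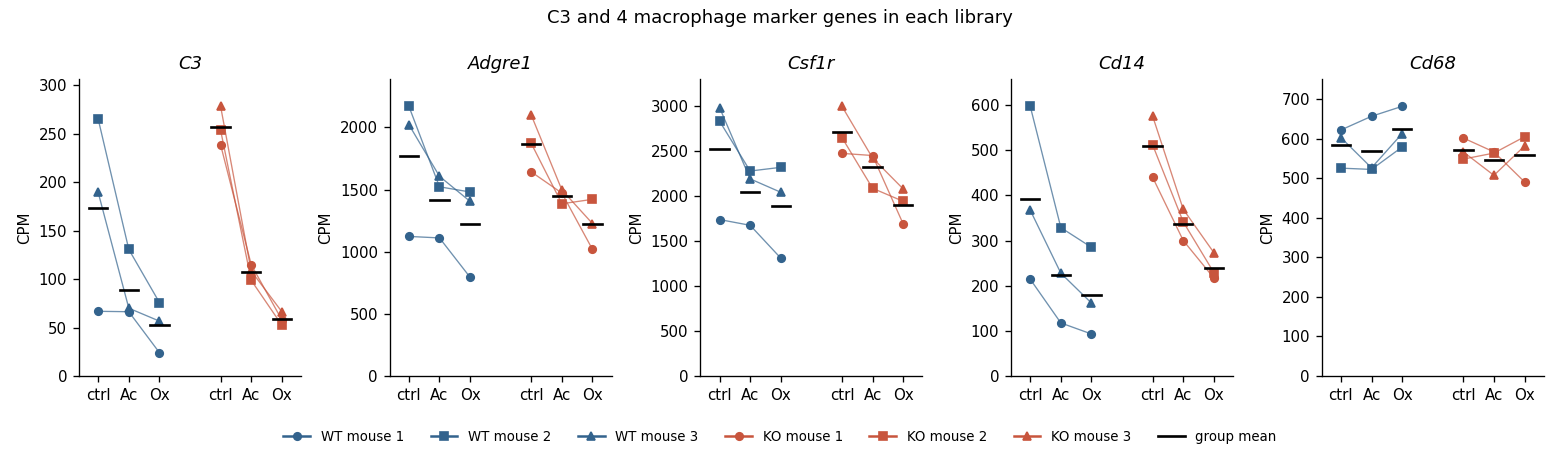
*C3* and the macrophage markers *Adgre1*, *Csf1r*, *Cd14* and *Cd68* in TMM-scaled CPM (y axes, linear, from 0) in each library by genotype and medium, with 1 line per mouse and bars for group means (n = 3). WT mouse 1 (blue circles) is the lowest WT mouse for *Adgre1*, *Csf1r* and *Cd14* in each medium, and the highest for *Cd68*.

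The C1q chains shared a pattern in which OxLDL libraries were the lowest. *C1qa*, *C1qb* and *C1qc* were each lower with OxLDL than with control and than with AcLDL in all 6 mice, and the difference was largest for *C1qa*. In WT macrophages, *C1qa* was at 77.1, 137 and 91.8 CPM in control, 93.9, 129 and 110.2 CPM with AcLDL, and 49.3, 71.6 and 60.0 CPM with OxLDL. In KO macrophages it was at 98.9, 63.8 and 98.0 CPM in control, 93.8, 72.2 and 93.9 CPM with AcLDL, and 62.3, 33.5 and 75.2 CPM with OxLDL. The OxLDL libraries of *C1qa* lay below all control libraries in WT, as for 6.17% of all genes, and below all AcLDL libraries, whereas in KO mouse 3 with OxLDL exceeded mouse 2 in the other media.

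Against control, the *C1qa* difference with OxLDL was -0.76 in WT (SE 0.24, edgeR adjusted p = 0.178) and -0.60 in KO (SE 0.24, edgeR adjusted p = 0.278), and it passed with the mouse as a block (edgeR adjusted p = 0.000324 and 0.00315). It was -0.48 in WT without the control library of mouse 2 (edgeR adjusted p = 0.635) and -0.33 in KO without the OxLDL library of mouse 2 (edgeR adjusted p = 0.710), both in the fit without the block. *C1qb* and *C1qc* differed from control by -0.29 and -0.20 in WT and by -0.31 and -0.21 in KO, and did not pass in either fit. With the block, 3 members were called in each OxLDL comparison (*C1qa*, *C3* and *Cfp*), where 4.39% (WT) and 7.18% (KO) of all genes were called.

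Between OxLDL and AcLDL the differences were larger for all 3 chains in WT and for *C1qb* and *C1qc* in KO. The AcLDL libraries of *C1qb* and *C1qc* were mostly above control. For *C1qa* in KO the difference was -0.59 against AcLDL and -0.60 against control. *C1qb* in WT was at 235, 346 and 313 CPM in control, 343, 383 and 388 CPM with AcLDL, and 157, 294 and 279 CPM with OxLDL. *C1qc* in WT was at 252, 333 and 295 CPM in control, 334, 372 and 358 CPM with AcLDL, and 197, 296 and 273 CPM with OxLDL. For all 3 chains the WT OxLDL and AcLDL libraries did not overlap, which held for 4 of the 9 members (with *Cfb*) and for 4.44% of all genes in that direction. In KO, *C1qb* was at 308, 266 and 295 CPM in control, 345, 235 and 356 CPM with AcLDL, and 217, 199.8 and 283 CPM with OxLDL. *C1qc* in KO was at 298, 221 and 315 CPM in control, 367, 244 and 347 CPM with AcLDL, and 244, 205 and 269 CPM with OxLDL. The KO groups overlapped, and mouse 2 was the lowest KO mouse in every medium for both genes.

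In WT, OxLDL differed from AcLDL by -0.87 for *C1qa* (SE 0.24), -0.60 for *C1qb* (SE 0.20) and -0.47 for *C1qc* (SE 0.17), with edgeR adjusted p of 0.546, 0.752 and 0.834. In this comparison 0 members passed by edgeR or DESeq2, and 0.00814% of all genes were called. At an unadjusted p under 0.05 there were 3 members, beside 632 of the 12290 genes tested. With the mouse block all 3 chains passed together with *C3* (edgeR adjusted p = 0.000212, 0.00178 and 0.00636), against 0.732% of all genes. Without WT mouse 1 only *C1qa* still passed in the blocked fit (edgeR adjusted p = 0.000801, against 0.0679 for *C1qb* and 0.140 for *C1qc*).

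In KO the differences were -0.59, -0.41 and -0.41 for *C1qa*, *C1qb* and *C1qc* (edgeR adjusted p = 0.866, 0.895 and 0.866), with 0 members called by edgeR or DESeq2 and 0.0651% of all genes called. At an unadjusted p under 0.05 there were 4 members, beside 682 of the 12290 genes tested. The mouse block brought *C1qa* (edgeR adjusted p = 0.0132) and *C1qc* (0.0184) past the threshold with *C3*, but not *C1qb* (0.0624), against 1.38% of all genes. AcLDL itself differed from control by 0.12, 0.31 and 0.27 for *C1qa*, *C1qb* and *C1qc* in WT and by -0.01, 0.11 and 0.20 in KO, and none passed with or without the block.

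**Figure D3:**
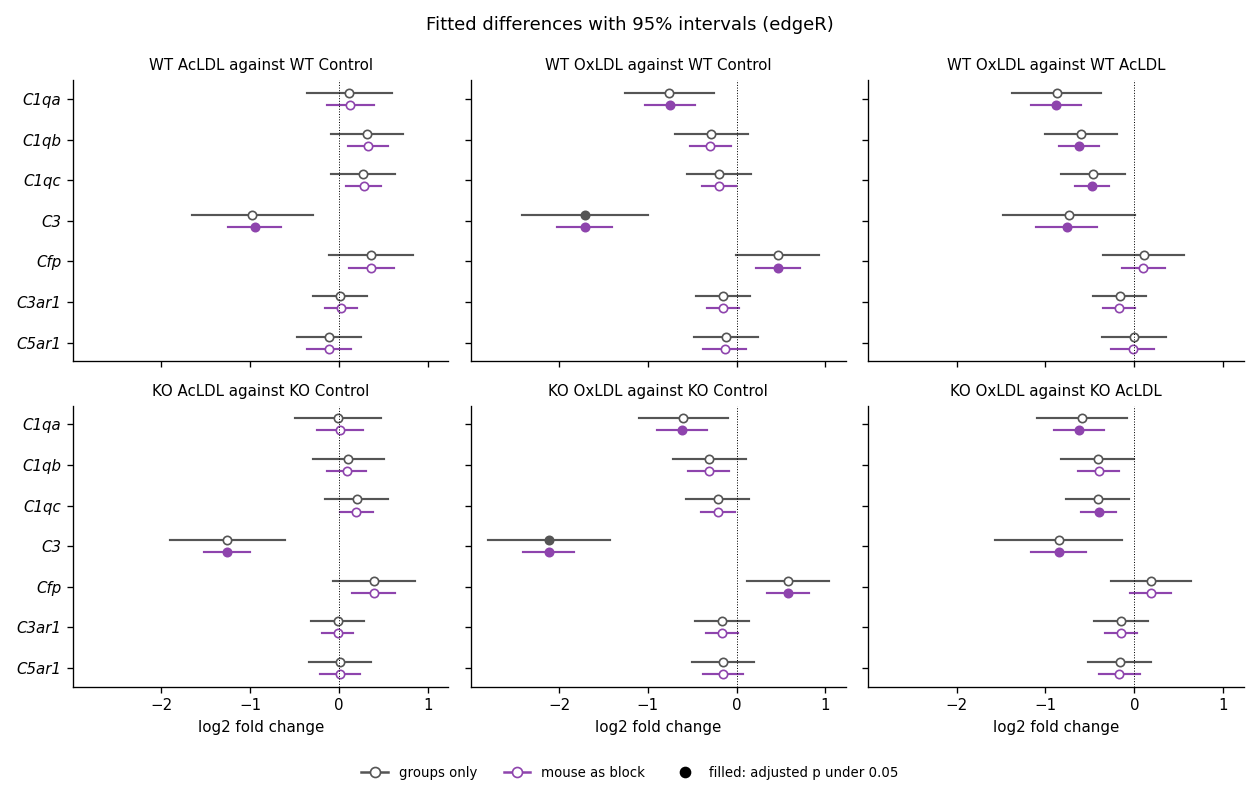
Fitted log2 fold changes (x axis) with 95% intervals for the 7 members other than *Cfb* and *C2*, in 6 comparisons between media, from the fit on groups only (grey) and with the mouse as a block (purple); filled points have an edgeR adjusted p under 0.05. *C3* lies left of 0 in every panel, *C1qa* lies left of 0 in the 4 OxLDL panels, and *C3ar1* and *C5ar1* stay near 0.

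Because C1q needs all 3 chains, their balance was computed as the share of each in the summed CPM per kb. *C1qb* made up 49.1 to 58.1% of the sum over the 18 libraries, *C1qc* 27.3 to 34.8% and *C1qa* 10.02 to 21.2%. The level of these shares depends on the exon lengths used, 1088 bases for *C1qb*, 1931 for *C1qc* (over 2 transcripts) and 1040 for *C1qa*. Without division by length, the mean CPM of *C1qb* and *C1qc* was nearly equal (291 and 290). The *C1qa* share was 18.5% ± 2.39 (SD, n = 3) in WT control, 16.9% ± 1.54 with AcLDL and 14.3% ± 1.76 with OxLDL. In KO it was 16.8% ± 1.88, 15.7% ± 1.02 and 13.6% ± 3.12. The *C1qb* share changed least between group means, from 52.3 to 54.7%. No test was run on these shares.

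**Figure D4:**
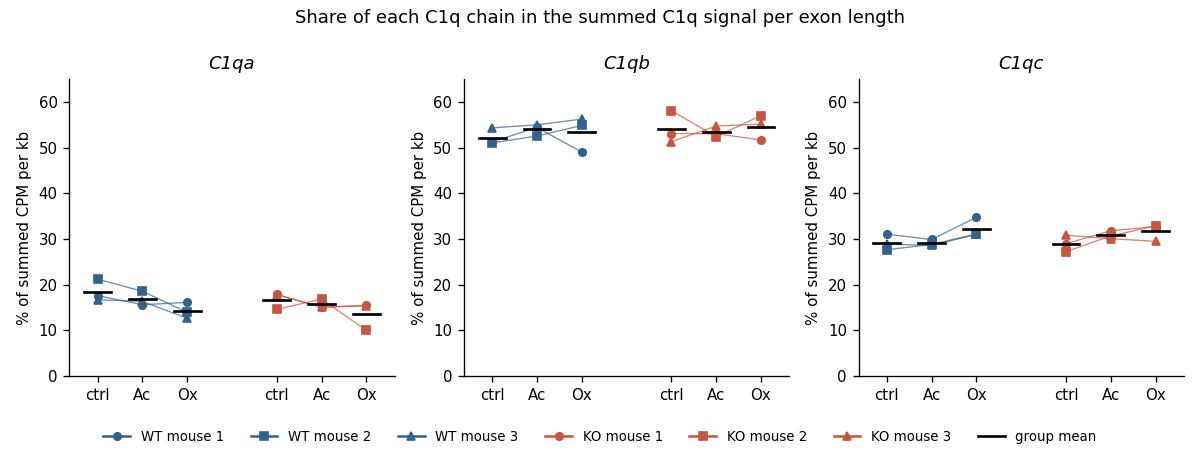
Share of *C1qa*, *C1qb* and *C1qc* in the summed C1q signal, in percent of the summed CPM per kb of exon (y axis), in each library by genotype and medium, with 1 line per mouse and bars for group means (n = 3). *C1qb* holds 49.1 to 58.1% throughout, and the mean *C1qa* share is lowest with OxLDL in both genotypes.

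*Cfp*, which encodes the plasma protein that stabilizes the alternative pathway C3 convertase, had higher values with both LDLs than with control in each mouse. In WT macrophages it was at 66.8, 129.8 and 137 CPM in control, 112, 171 and 148 CPM with AcLDL, and 125, 189 and 148 CPM with OxLDL. In KO macrophages it was at 74.8, 118 and 123 CPM in control, 119, 137 and 157 CPM with AcLDL, and 126, 161 and 182 CPM with OxLDL. Higher values in all 3 mice of a genotype were seen for 16.3% (WT) and 15.7% (KO) of all genes with AcLDL and for 15.4% and 18.5% with OxLDL. In KO the OxLDL and control libraries did not overlap, as for 10.1% of all genes in that direction.

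The OxLDL difference in *Cfp* was 0.46 in WT (SE 0.23, edgeR adjusted p = 0.505) and 0.58 in KO (SE 0.22, edgeR adjusted p = 0.240), and it passed with the mouse block (edgeR adjusted p = 0.0151 and 0.000913). The blocked WT call was lost without mouse 1 (edgeR adjusted p = 0.170), the mouse with the lowest control value. With AcLDL the differences of 0.36 and 0.39 passed in neither fit. *Cfp* is abundant in neutrophils as well, and the summed level of 11 neutrophil markers was 127 to 162 CPM in WT control, 123 to 252 CPM with AcLDL and 205 to 345 CPM with OxLDL. In KO it was 73.7 to 168 CPM in control, 55.0 to 118 CPM with AcLDL and 116 to 172 CPM with OxLDL. Of that list, 8 genes exceeded 3 counts in some library, *Retnlg* had 0 counts in all 18, *Cxcr2* in 14 and *Elane* in 13, and the part of these transcripts in the *Cfp* values was not tested.

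The anaphylatoxin receptors showed no called difference. *C3ar1*, the receptor for C3a, had 732, 963 and 896 CPM in WT control, 801, 922 and 896 CPM with AcLDL, and 627, 871 and 835 CPM with OxLDL. In KO it had 889, 942 and 944 CPM in control, 926, 937 and 880.2 CPM with AcLDL, and 704, 945 and 828 CPM with OxLDL. The OxLDL difference was -0.15 in WT (95% interval -0.45 to 0.15) and -0.16 in KO (-0.47 to 0.14). These intervals exclude a fall of the size fitted for *C3* in the same libraries. With AcLDL the *C3ar1* differences were 0.02 (-0.29 to 0.32) and -0.02 (-0.32 to 0.29).

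*C5ar1*, the receptor for C5a, had 201, 223 and 190.2 CPM in WT control, 164, 201 and 201 CPM with AcLDL, and 126, 252 and 183 CPM with OxLDL. In KO it had 224, 235 and 249 CPM in control, 236, 240.5 and 239 CPM with AcLDL, and 173, 221 and 242 CPM with OxLDL. Its OxLDL difference was -0.12 in WT (95% interval -0.48 to 0.24) and -0.15 in KO (-0.50 to 0.20). Mouse 1 of each genotype was the lowest of its OxLDL group, and no *C5ar1* comparison between media separated the groups.

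The proteases *Cfb* and *C2*, which form the catalytic subunits of the alternative and classical C3 convertases, were near the limit of detection. *Cfb* had 0, 10 and 11 counts in WT control, 3, 3 and 1 with AcLDL, and 0, 1 and 1 with OxLDL. In KO it had 5, 9 and 2 counts in control, 5, 1 and 1 with AcLDL, and 0, 1 and 2 with OxLDL. Summed over each group, control exceeded OxLDL 11.6-fold in WT (95% exact counting interval 2.82 to 102) and 4.84-fold in KO (1.39 to 25.9), which covers counting error only. The fitted WT difference did not pass (-3.27, SE 1.07, edgeR adjusted p = 0.192), and without the control library of WT mouse 1, which had no count, it did (edgeR adjusted p = 0.0333). Without the control library of WT mouse 2, which had 10 counts, the edgeR adjusted p was 0.462. *C2* had 0 to 4 counts in every library and 0 in all 3 WT OxLDL libraries, so that no difference was detectable at this depth. Of all 31-base words in the transcripts of *Cfb* and *C2*, 75.5% and 40.8% also occur in other genes, including the readthrough gene *Gm20547*, which had 0 counts, so the split of reads between them is uncertain.

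Loss of *Slc7a7* gave no called difference by edgeR or DESeq2 in any of the 9 genes in any medium (0.00814%, 0.0163% and 0.00814% of all genes were called in control, AcLDL and OxLDL), or averaged over media (0.00789%). At an unadjusted p under 0.05 there were 491, 601, 587 and 525 genes in these comparisons, and among the members only *C2* with OxLDL. The same edgeR fits called *Slc7a7* itself with AcLDL (-2.89, edgeR adjusted p = 0.000472) and averaged over media (-1.80, edgeR adjusted p = 0.0112). They did not call it in control (-1.18) or with OxLDL (-1.50, edgeR adjusted p = 0.276). The lack of calls among the members is therefore weak evidence that they did not differ. *C3* was higher in KO than in WT by 0.55 in control (95% interval -0.09 to 1.18), 0.26 with AcLDL (-0.43 to 0.95) and 0.14 with OxLDL (-0.62 to 0.90), and by 0.47 on average over media (-0.11 to 1.05, edgeR adjusted p = 0.98). The average ranged from 0.16 without WT mouse 1 (edgeR adjusted p = 0.927) to 0.87 without WT mouse 2 (edgeR adjusted p = 0.201) when 1 mouse was left out. The WT control libraries of *C3* spread far more (174 ± 100 CPM, SD, n = 3) than those of KO (257 ± 20.1 CPM). *C5ar1* was higher in KO by 0.20 in control (-0.15 to 0.56), 0.34 with AcLDL (-0.02 to 0.69) and 0.17 with OxLDL (-0.18 to 0.53). Its KO libraries lay above all WT libraries in control and AcLDL, as did those of 4.88% and 5.66% of all genes. *C1qa* lay below WT without overlap in AcLDL (-0.37, -0.85 to 0.11), as did 4.78% of all genes.

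The responses to LDL were also compared between genotypes by the interaction term. No member was called for either LDL by edgeR or DESeq2, or with the mouse block. By edgeR 0% of all genes were called in both (327 genes for AcLDL and 338 for OxLDL at an unadjusted p under 0.05), and with the block 0.0407% for AcLDL and 0% for OxLDL. For *C3* the OxLDL response in KO minus that in WT was -0.41 (95% interval -1.40 to 0.58) and the AcLDL response -0.29 (-1.22 to 0.65). With the mouse block the values were -0.40 (-0.84 to 0.03) for OxLDL and -0.31 (-0.71 to 0.08) for AcLDL. The intervals do not show that the responses were alike. For OxLDL, a *C3* response lower in KO by 1 log2 unit lies within the interval without the block and outside the blocked one.

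**Figure D5:**
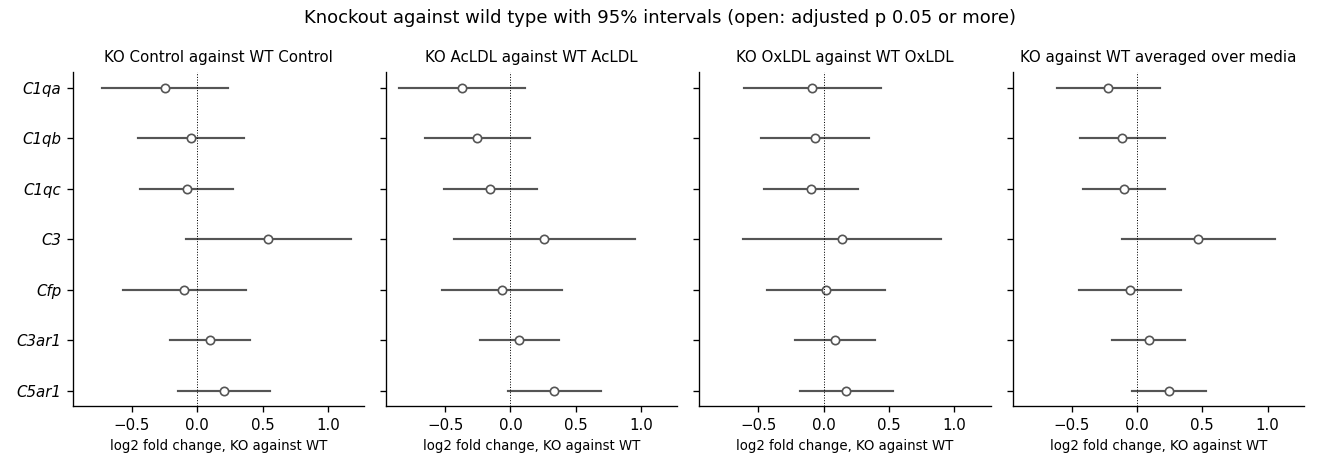
Log2 fold changes of KO against WT (x axis) with 95% intervals for 7 members in control, AcLDL and OxLDL and averaged over media; open points have an edgeR adjusted p of 0.05 or more. Each interval includes 0, and the widest are those of *C3*.

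Over the 9 members as a list, the median log2 difference with OxLDL was -0.29 in WT and -0.21 in KO, beside 0.01 and 0.00 over all genes tested. For OxLDL against AcLDL the medians were -0.60 and -0.41, beside 0.01 and 0, and for AcLDL against control 0.02 in both genotypes, beside -0.00. With OxLDL, 5 of 9 members in WT and 6 of 9 in KO were lower than control in all 3 mice, as were 15.9% and 20.5% of all genes. Against AcLDL, 6 of 9 in WT and 4 of 9 in KO were lower in all 3 mice, as were 16% and 16.8% of all genes. These summaries count each member alike, although the C1q chains varied together. *C2* and *Cfb*, fitted at -3.33 and -3.27 with OxLDL in WT, rest on few counts. The members were chosen with earlier results of these data known, so the list is described and was not tested.

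Other genes of the system were examined from a list of 49, of which 48 had a row and 19 passed the filter. Without the block 1 of the 19 was called lower in each comparison of OxLDL with control. Among the 12290 genes tested, 131 (WT) and 204 (KO) were called lower there. None of the 19 was called higher, and none was called in the other comparisons. The gene called was *Cd55*, decay-accelerating factor, which dissociates C3 convertases on the cell's own surface. It had 2, 9 and 7 counts in WT control, 2, 3 and 5 with AcLDL, and 0, 0 and 1 with OxLDL. In KO it had 10, 6 and 10 counts in control, 2, 6 and 5 with AcLDL, and 0, 0 and 1 with OxLDL. Control exceeded OxLDL 19.8-fold in WT (95% exact counting interval 3.13 to 825) and 23.6-fold in KO (3.88 to 968). The edgeR adjusted p was 0.0272 in WT and 0.00747 in KO. These low counts left the calls sensitive: the WT call was lost when the control library of mouse 2 or 3 or the OxLDL library of mouse 1 or 2 was left out (edgeR adjusted p 0.0908 to 0.184) with only the libraries compared in the fit (edgeR adjusted p = 0.185) and with DESeq2 (adjusted p = 0.108), and the KO call without the OxLDL library of mouse 2 (0.0609).

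With the mouse as a block, 3 of the 19 genes were higher with AcLDL in WT and 2 in KO, against 0.724% and 0.797% of all genes called higher. *Lrp1*, a large endocytic receptor that can act with calreticulin in the uptake of C1q-coated cells, rose by 0.37 and 0.38 with AcLDL in WT and KO (edgeR adjusted p = 0.0461 and 0.0317) and by 0.36 with OxLDL in KO (edgeR adjusted p = 0.0209). *Colec12*, a scavenger receptor of the collectin family, rose with AcLDL in WT by 0.50 (edgeR adjusted p = 0.0402). *Itgax*, a subunit of complement receptor 4, fell with OxLDL in KO by 2.37 (edgeR adjusted p = 0.0143), from 9.13 ± 0.628 to 1.66 ± 1.56 CPM (SD, n = 3). These levels rest on 14, 15 and 15 counts in KO control and 1, 1 and 6 with OxLDL. The abundant listed genes *Itgam*, *Itgb2*, *Cd93*, *Calr* and *Ctsl* (cathepsin L, a lysosomal protease) were not called in any comparison.

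Across the 18 libraries the levels of the C1q chains followed each other closely on the log2 scale (Pearson r = 0.939 for *C1qb* and *C1qc*, 0.870 for *C1qa* and *C1qc*, and 0.839 for *C1qa* and *C1qb*). These points share mice, media and genotypes, and the values describe the libraries only. Among 8608 genes with a mean of at least 10 CPM, the other chains were among the 3 most similar genes to each chain, with *Sla* (0.852) beside *C1qa*, *Sesn1* (0.902) beside *C1qb* and *Man1a* (0.841) beside *C1qc*. The genes most like *C3* were *Adam17* (0.971), *Slfn2* (0.970) and *Nckap1l* (0.969). The receptors *C3ar1* and *C5ar1* correlated at 0.781 and *C3* with *C3ar1* at 0.718, whereas *C3* and *Cfp* stood at -0.201. *C3ar1* was close to *Gm5431* (0.888) and *Oas1a* (0.888), *C5ar1* to *Hcfc1* (0.924), *Glg1* (0.881) and *Tet3* (0.880), and *Cfp* to *Edem3* (0.882), *Rttn* (0.855) and *Ice1* (0.853). The lists for *Cfb* (*Aoah*, *P2rx4* and *Ptpn23*, 0.802 to 0.837) and *C2* (*H2afy*, *Card9* and *Stk38l*, 0.686 to 0.725) rest on few counts.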

How the data were processed

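RNA was extracted from BMDM cultures and sequenced from a stranded total RNA kit. Per the labels and the study's methods, the authors processed reads with STAR and Salmon against mm10 (Ensembl release 93) and deposited 1 table of estimated counts per gene for the 18 libraries, which were not normalized. Whether counting used the strand is not given in the sources used here.

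The estimated counts were rounded to whole numbers and genes kept with edgeR's filterByExpr (minimum count 2, minimum total 10), which left 12290 genes. The 6 groups were fitted together in edgeR 4.0.16 (R 4.3.3) with TMM scaling (factors 0.956 to 1.03) and the quasi-likelihood F test (12 residual degrees of freedom, prior 11.3, common biological coefficient of variation 0.152), Benjamini-Hochberg over all genes and a threshold of 0.05. KO against WT averaged over media used counts summed per mouse (12673 genes). Intervals cover 95%, log2 CPM used a prior count of 2, and TMM against plain library size moved log2 differences by 0.024 to 0.061. DESeq2 1.42.0, other scalings, no filter, the mouse block and leaving out libraries were alternatives.

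Mouse numbers in the library names tie the 3 media of a mouse together. In a check over 8608 genes, 17 of 18 same-mouse pairs deviated together with r over 0.1 (range 0.0931 to 0.482, median 0.282). Across genotypes the number pairs nothing. No 2 libraries of a group agreed within counting noise (chi-square per degree of freedom 2.03 to 12.7). In simulated WT OxLDL against control data the edgeR fit recovered 199 of 200 genes changed 4-fold among 12047 genes, with 8 false calls. The simulation gave every gene the same spread, held no mouse effect and changed only genes well above the counting floor. It therefore does not give the recovery for genes that spread more, such as *C3*, or for genes with few counts. Named genes were the 9 members, the listed complement genes that were called or at 100 CPM or more, *Slc7a7*, and the 3 genes most similar to each member, of which some items are not reported here. Members and lists were chosen with earlier results of these data known. Coordinates are from GENCODE M21 and promoters from RefSeq.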

Additional observations from a re-analysis of the deposited data

How the results depend on the processing

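The *C3* response to OxLDL kept its direction under every alternative, but the number of members called without the mouse block depended on the fit. With AcLDL in WT, 0 members were called in the fit reported and 1 (*C3*) with no filter, with the replicate block by mouse, and without WT mouse 1 with or without the block; leaving out 1 library gave 0 to 1. With OxLDL in WT, 1 member became 3 with no filter, 3 with the mouse block, 3 with the block without WT mouse 1 and 0 when only the libraries compared were fitted; leaving out 1 library gave 0 to 2. With AcLDL in KO, 0 became 1 with no filter, with only the libraries compared and with the mouse block. With OxLDL in KO, 1 became 3 with no filter, 2 with only the libraries compared and 3 with the mouse block. For OxLDL against AcLDL, 0 became 3 in WT and 1 in KO with no filter, 4 and 3 with the mouse block, 1 in WT with the block without mouse 1, and 1 in KO with only the libraries compared. Averaged over media, 0 became 1 (*C3*, edgeR adjusted p = 0.0454) with no filter. The cause of these shifts was not tested. The fits without WT mouse 1 were added after its marker levels were seen.

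Over all genes, the mouse block raised the calls from 58 to 265 (AcLDL) and from 165 to 539 (OxLDL) in WT, from 64 to 307 and from 285 to 882 in KO, and from 1 to 90 and from 8 to 169 for OxLDL against AcLDL in WT and KO. The genotype and interaction comparisons in each medium stayed at 0 members in every alternative, and pairing by the number shared across genotypes, which is not a pairing, changed no call. Of 108 pairs of member and comparison, 45 changed sign under some alternative, and 0 of these had been called. Depth limits *Cfb*, *C2*, *Cd55* and *Itgax*, where a few counts decide the value. The 3 mice per genotype allow no exact permutation p below 0.1 for a single gene, so calls rest on the spread shared across genes.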
